A study of Mus musculus with 130 samples.

Results

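A set of 10 named genes of chondrogenesis, the formation of cartilage, were followed through cell cycle fractions of mouse embryos. These were the transcription factor genes Sox5, Sox6 and Sox9 and the matrix genes Col2a1, Col9a1, Col11a2, Acan, Matn1, Matn4 and Cnmd. The 10 genes were chosen by symbol, with no measured value in the rule, from the 52550 genes of the count table, of which 41706 had a count. Earlier results of these data were known when these genes and the other gene lists below were chosen. The study sorted cells of FVB/NJ embryos that carry FUCCI, a reporter that marks cells before S phase in red and cells from S phase to mitosis in green. RNA was read from 4 gates, which the labels call G0, G1, G1-S and S-G2-M phase cells, and from unsorted cells. The design text calls the embryos FUCCI wild type and gives 3 ages. Embryonic day 10.5 (E10.5) is represented by preparations WT1 and WT2, E11.5 by WT3 alone, and E13.5 by preparations named 5 and 8. Each preparation gave 1 library per fraction, 25 in all. E10.5 and E13.5 therefore had n = 2 per fraction and E11.5 had n = 1. All groups share the strain and the reporter, and no other allele or agent is named. No source used here names the promoter behind the reporter. It is also unstated if 1 embryo or several pooled embryos made up a preparation, so p-values measure the spread between these preparations, which may be technical in part.

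Cartilage forms where mesenchymal cells condense and switch on Sox9, the transcription factor that starts the chondrocyte programme. SOX9 acts with SOX5 and SOX6, a closely related pair of factors, on genes of the matrix: collagens II, IX and XI, which build the cartilage fibril, the proteoglycan aggrecan, and the matrilins, which link the parts of the matrix. In the mouse limb and vertebral column, condensation comes first and the aggrecan-rich matrix follows. Sox9 also acts outside cartilage, for example in the neural tube, neural crest and gonad, and Col2a1 is transcribed in several other embryonic epithelia.

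Library totals ran from 14692256 to 58492064 counts with a median of 22852555. Mitochondrially encoded genes took 0.372% to 0.701% of counts in the WT preparations and 1.66% to 3.42% in preparations 5 and 8, so embryonic day, the kind of preparation title and this share cannot be told apart. The gates were checked on Gmnn and Cdt1, the genes whose protein fragments make the FUCCI reporter. Gmnn was at 4.82 to 14.6 CPM in G0 libraries and 36.7 to 105 CPM in G1-S libraries. Cdt1 was highest in G1-S in every preparation, at 98.6 to 118 CPM. CPM is the usual count normalised to library size, here with TMM scaling of the total. The label "Embryo" names no tissue, so every level is an average over all embryo cells of that fraction, sorted or unsorted. Fewer cells of a type and less RNA per cell cannot be told apart.

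All 10 genes passed the filter on low counts and were among the 23506 genes tested with edgeR, with Benjamini-Hochberg adjustment over all of them and a threshold of 0.05. Matn1, with 0 to 17 counts in each E10.5 library, passed through the E13.5 libraries, where it was high, so a difference between days was built into its passing. Changes are log2 differences with their standard error (SE). The main model had no term for preparation. Steps between gates were therefore tested unpaired, and libraries of the same preparation were treated as independent.

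The Sox trio rose from E10.5 to E13.5 in every sorted gate, and Sox6 and Sox9 also rose in unsorted cells. Sox6 lies at chr7:115470872-116038796 on the minus strand of GRCm38. In unsorted cells it was at 55.9 CPM in WT1 and 51.2 CPM in WT2, against 163 CPM in preparation 5 and 156 CPM in preparation 8. Both E13.5 libraries were above both E10.5 libraries, a log2 change of 1.58 (SE 0.14, adjusted p = 2.46e-07).

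Sox9, the lead factor of the programme, is at chr11:112782224-112787760 on the plus strand. Unsorted cells held 44.8 and 43.9 CPM of Sox9 at E10.5, and 87.3 and 86.2 CPM at E13.5. The groups did not overlap, and Sox9 rose by 0.97 on the log2 scale (SE 0.16, adjusted p = 9.20e-05). In the G0 gate Sox9 was at 10.9 and 14.1 CPM at E10.5 and at 47.3 and 43.3 CPM at E13.5. This rise, 1.86 (SE 0.17, adjusted p = 1.93e-07), was the highest of the 5 fractions for Sox9, while G1-S had the lowest, 0.68 (SE 0.16, adjusted p = 0.00266).

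Sox5, the partner of Sox6, is at chr6:143828425-144781977 on the minus strand. In unsorted cells it was at 55.3 and 43.1 CPM at E10.5 and 61.7 and 59.4 CPM at E13.5. The E13.5 pair lay above the E10.5 pair, but the log2 difference of 0.30 (95% interval 0.01 to 0.59) did not pass the adjusted threshold (adjusted p = 0.0582). In G0 and G1 the change was larger: Sox5 went from 36.4 and 32.7 CPM to 93.2 and 97.5 CPM in G0, and from 56.9 and 49.7 CPM to 166 and 155 CPM in G1. Both rises passed the test, at 1.46 (SE 0.13, adjusted p = 1.90e-07) and 1.59 (SE 0.13, adjusted p = 9.21e-08). Of the exon length of Sox5, 9.3% is shared with genes on the opposite strand. Whether reads were counted by strand is not given in the sources used here, so reads from those stretches cannot be assigned to a strand.

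Stretches upstream of the RefSeq starts (GRCm38.p6) are printed for Sox5 and Sox6 because SOX proteins bind a short core, written ACAAAG or ACAATG. A part of these letters in the changes between days was not tested. Capitals mark a core, read on both strands. The Sox6 window is chr7:116038745-116038994 and that of Sox5 is chr6:143947107-143947356, which lies inside the span of the gene; both are on the minus strand, 250 bases long and printed 5′ to 3′.
Sox6: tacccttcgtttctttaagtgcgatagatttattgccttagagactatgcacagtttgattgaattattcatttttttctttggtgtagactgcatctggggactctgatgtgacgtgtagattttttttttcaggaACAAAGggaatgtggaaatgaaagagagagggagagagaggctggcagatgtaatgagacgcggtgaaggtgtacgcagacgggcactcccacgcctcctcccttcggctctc
Sox5: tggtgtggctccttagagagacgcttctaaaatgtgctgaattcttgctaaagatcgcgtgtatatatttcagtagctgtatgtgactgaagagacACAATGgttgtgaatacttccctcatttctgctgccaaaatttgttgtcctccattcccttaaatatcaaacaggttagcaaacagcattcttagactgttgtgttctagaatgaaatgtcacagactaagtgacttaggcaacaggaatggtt
Sox6 has 6 such windows in the table, and 5 of them hold at least 1 of the cores. The windows of Col9a1, Col11a2, Acan, Matn1, Matn4 and Cnmd hold neither core. Over all 32851 windows of 27025 genes, 16.5% hold ACAAAG and 10.7% hold ACAATG. A match is a description of these letters only, and 8 of the 10 genes had a window in the table, 15 windows in all; Sox9 and Col2a1 had none.

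The 3 collagen genes rose at E13.5 in all 5 fractions. Col2a1, which encodes the main collagen of cartilage, lies at chr15:97975602-98004695 on the minus strand. Its unsorted libraries held 511 and 430 CPM at E10.5 against 1966 and 1692 CPM at E13.5. In G1 it went from 544 and 491 CPM to 3412 and 3200 CPM. The E13.5 libraries stood above the E10.5 libraries in both fractions, with log2 changes of 1.96 (SE 0.21, adjusted p = 1.15e-06) and 2.68 (SE 0.21, adjusted p = 5.92e-08). Col2a1 alone made up 0.377% and 0.35% of all counts in the G1 libraries of preparations 5 and 8, where it ranked 8 and 9 among genes by count.

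Col9a1 encodes a chain of collagen IX, which coats the collagen II fibril, and lies at chr1:24177610-24252684 on the plus strand. Unsorted cells held 86.9 and 102 CPM at E10.5, and 380 and 345 CPM at E13.5. This 3.83-fold rise (log2 1.94, SE 0.22, adjusted p = 3.08e-06) was close to the 3.89-fold rise of Col2a1, and the difference between these folds was not tested.

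Col11a2 encodes a chain of collagen XI, the core of the fibril, and lies at chr17:34039437-34066685 on the plus strand. It was at 21.4 and 10.7 CPM in unsorted cells at E10.5 and at 290 and 236 CPM at E13.5. In S-G2-M it went from 8.10 and 8.18 CPM to 329 and 325 CPM. The E13.5 values were above the E10.5 values throughout, by 4.05 in unsorted cells (SE 0.26, adjusted p = 1.19e-08) and by 5.33 in S-G2-M (SE 0.28, adjusted p = 1.39e-09). In G0 the rise was 1.87 (SE 0.24, adjusted p = 1.28e-05), from 29.8 and 35.1 CPM to 114 and 124 CPM.

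Aggrecan and the matrilins rose from at most 5.38 CPM in any E10.5 library to at least 11.2 CPM in every E13.5 library. Acan, which encodes the large proteoglycan that holds water in cartilage, lies at chr7:79053483-79115099 on the plus strand. Unsorted cells held 0.902 and 1.64 CPM at E10.5, and 196 and 150.5 CPM at E13.5. In G1 it was at 1.10 and 1.71 CPM against 368 and 303 CPM. Acan rose by 7.03 in unsorted cells (SE 0.47, adjusted p = 1.22e-07) and by 7.86 in G1 (SE 0.49, adjusted p = 7.28e-08), with no overlap of the days.

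Matn4 encodes a matrilin and lies at chr2:164389393-164405160 on the minus strand, with 2.9% of its exon length opposite another gene. It was at 0.902 and 1.36 CPM in unsorted cells at E10.5 and at 175 and 152 CPM at E13.5, and it rose by 7.13 (SE 0.31, adjusted p = 1.26e-10). Matn1, the matrilin found mainly in cartilage, lies at chr4:130944385-130955475 on the plus strand. Its unsorted libraries held 0.0668 and 0.213 CPM at E10.5, 12 counts in all, and 68.0 and 52.7 CPM at E13.5, 2986 counts in all. Matn1 had no count in 3 of the 10 E10.5 libraries, which allows up to 3 expected counts in each of them by counting error alone. Its rise passed the test in all 5 fractions, but with 5 to 22 counts per fraction over the E10.5 pair, the size of the fold depends on the small count that the fit adds.

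Cnmd encodes chondromodulin, a factor of cartilage known to hold back blood vessels, and lies at chr14:79637690-79662170 on the minus strand. It rose in unsorted cells, from 5.14 and 2.67 CPM to 56.6 and 45.3 CPM, by 3.73 (SE 0.30, adjusted p = 8.93e-08). In S-G2-M it rose by 5.56 (SE 0.35, adjusted p = 7.01e-09). In the G0 gate it went the other way: 35.0 and 26.2 CPM at E10.5 and 14.97 and 12.3 CPM at E13.5. That fall was 2.24-fold (log2 change -1.17, SE 0.28, adjusted p = 0.00258), and it did not pass without preparation 8 (log2 change -1.02, adjusted p = 0.0784).

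Upstream stretches of Col11a2, Matn1 and Cnmd are shown as examples of matrix genes with unlike patterns: Matn1 rose in all 5 fractions, Cnmd fell in G0 between days, and Col11a2 fell from G0 to G1 at E10.5 but rose in that step at E13.5. Capitals mark the letters TATAAA, the motif of a TATA box, in the Col11a2 window at chr17:34038888-34039137 on the plus strand. They begin 143 bases before the end of the window, and whether they act as a TATA box was not tested. The Matn1 window is chr4:130944135-130944384 on the plus strand and the Cnmd window is chr14:79662184-79662433 on the minus strand. Neither holds TATAAA or a SOX core on either strand, and 12.4% of all windows hold TATAAA.
Col11a2: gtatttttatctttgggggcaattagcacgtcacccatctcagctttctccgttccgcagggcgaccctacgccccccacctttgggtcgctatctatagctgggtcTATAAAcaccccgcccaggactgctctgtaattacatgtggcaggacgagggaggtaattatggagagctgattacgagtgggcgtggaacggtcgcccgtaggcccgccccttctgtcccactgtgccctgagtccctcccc
Matn1: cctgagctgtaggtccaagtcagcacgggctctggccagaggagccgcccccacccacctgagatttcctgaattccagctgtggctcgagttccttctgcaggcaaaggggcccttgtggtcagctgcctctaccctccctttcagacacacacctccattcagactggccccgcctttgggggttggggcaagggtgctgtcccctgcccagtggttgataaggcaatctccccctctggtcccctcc
Cnmd: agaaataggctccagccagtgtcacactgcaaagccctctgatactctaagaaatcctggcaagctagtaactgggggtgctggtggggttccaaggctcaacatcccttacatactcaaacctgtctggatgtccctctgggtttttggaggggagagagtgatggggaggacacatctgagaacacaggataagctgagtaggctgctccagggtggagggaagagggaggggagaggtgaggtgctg

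**Figure D1:**
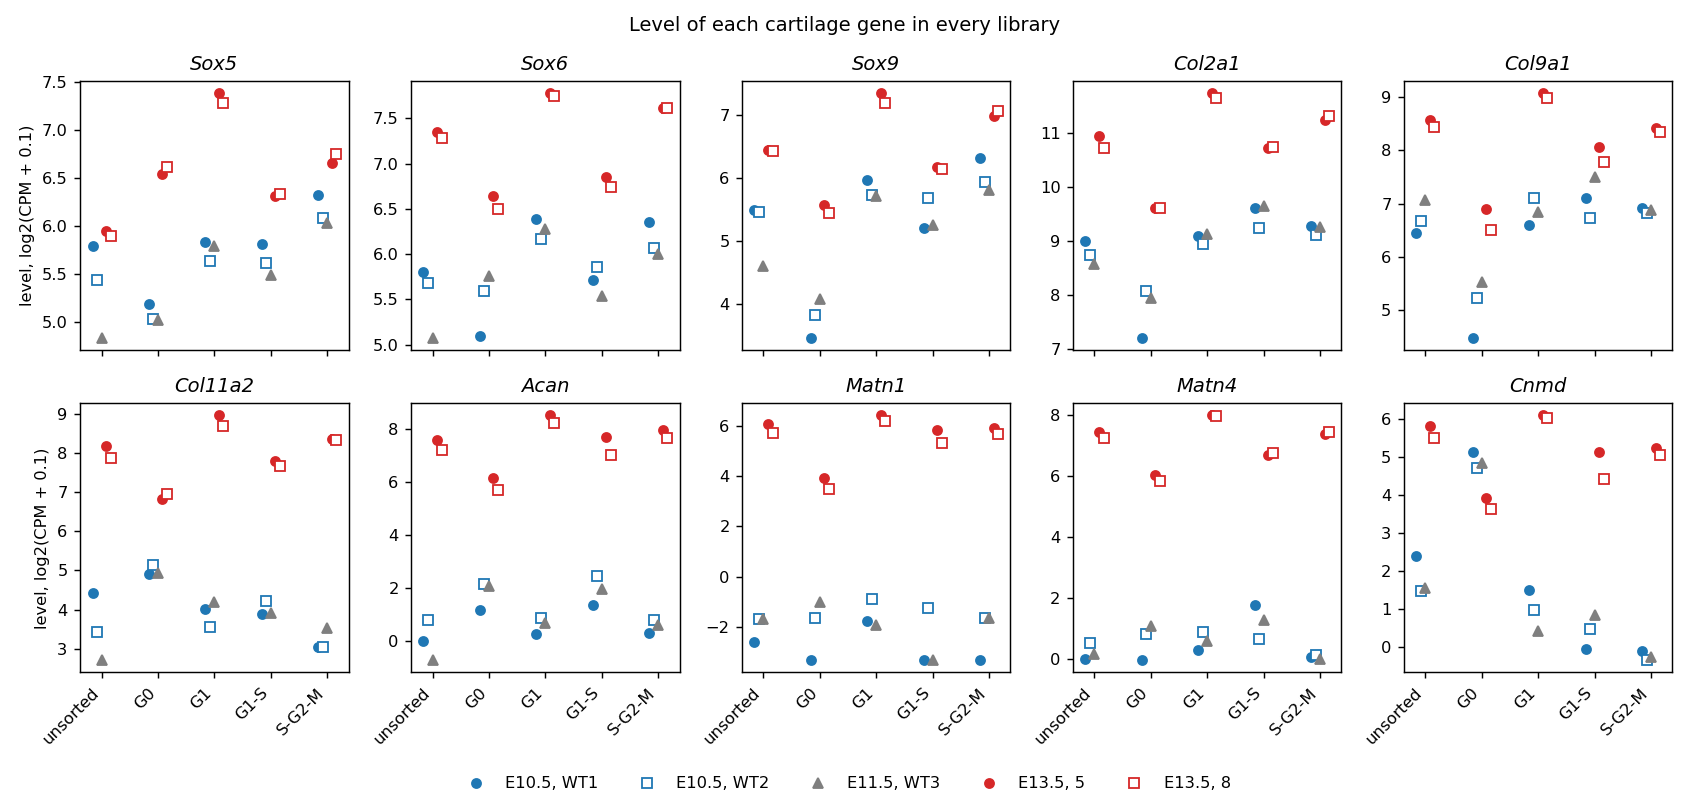
Level of each of the 10 genes in all 25 libraries, as log2(CPM + 0.1), by fraction; blue marks E10.5, grey E11.5 and red E13.5, with the preparation given by the symbol and its filling. The red points lie above the others in each panel and fraction except for Cnmd in G0, where 14.97 and 12.3 CPM lie below the 3 earlier libraries, which are at 26.2 to 35.0 CPM.

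Counted over the 10 genes, 9 rose in unsorted cells between E10.5 and E13.5, where 25.2% of all genes tested rose. In G0 9 rose and 1, Cnmd, fell, where 20.4% of all genes rose and 22.5% fell. All 10 rose in G1 (18.7% of all genes), in G1-S (19.8%) and in S-G2-M (18.9%). The median log2 change of the 10 genes was 2.84 in unsorted cells, 1.87 in G0, 3.78 in G1, 2.49 in G1-S and 3.71 in S-G2-M. The median over all genes tested was between -0.11 and -0.02 in these 5 comparisons. Matn1 is included in these counts and medians of the cartilage genes, although a difference between days was built into its passing the filter. Markers of other cell types also moved between days. In G0 10 of 12 mesenchyme genes rose, with sums of 586 and 1520 CPM at E10.5 and 6650 and 5760 CPM at E13.5, and 3 of 6 neuron genes fell while Mapt rose (log2 0.97), with sums of 5960 and 5060 CPM and then 3230 and 3370 CPM. All 6 liver genes rose in unsorted cells, from sums of 144 and 75.1 CPM to 1430 and 1050 CPM. Their part in the day changes of the cartilage genes was not tested. In G1-S, Sox5 and Sox9 did not pass without preparation 5 or without preparation 8, and Col9a1 did not pass without preparation 5. In S-G2-M, Sox5 passed neither without preparation 5 nor without preparation 8. In unsorted cells Sox5 passed without WT1 (log2 change 0.48, adjusted p = 0.000458).

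**Figure D2:**
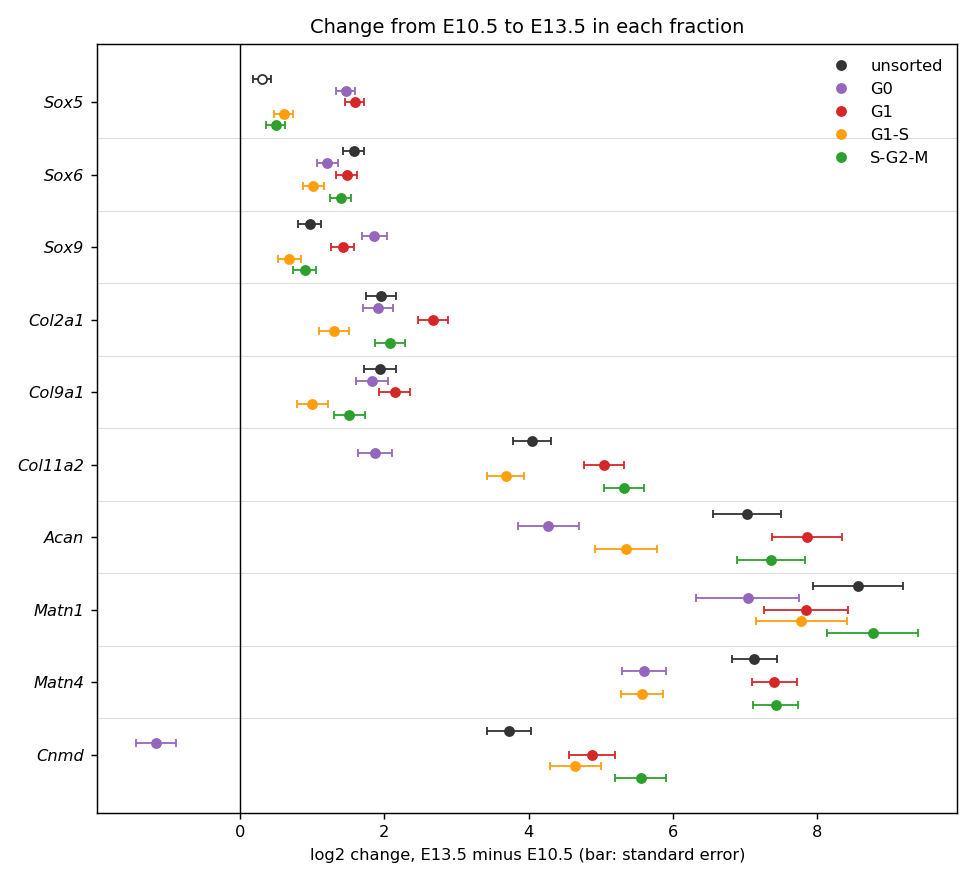
Log2 change from E10.5 to E13.5 of each gene in each fraction, with the standard error as a bar; filled points passed the test and the open point (Sox5 in unsorted cells, 0.30) did not. Changes of the Sox genes stay below 2, those of Acan, Matn1 and Matn4 lie above 4, and Cnmd in G0 (-1.17) is on the other side of 0.

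The single E11.5 preparation gives values but no test. Of the 50 pairs of gene and fraction, 49 lay below both E13.5 libraries, and the exception was Cnmd in G0 at 28.8 CPM. Against the 2 E10.5 libraries, 21 of the 50 values lay within their range, 16 below and 13 above. Col2a1 in G1 was at 560 CPM at E11.5, against 491 and 544 CPM at E10.5. Acan in G1 was at 1.496 CPM at E11.5, within the E10.5 pair. Sox9 in unsorted cells, at 24.2 CPM, was below both the E10.5 and the E13.5 pairs, as were Sox5 (28.4 CPM), Sox6 (33.6 CPM), Col2a1 (380 CPM), Col11a2 (6.42 CPM) and Acan (0.499 CPM) in the same library. That library had the lowest TMM scaling factor of the 25, 0.806. The total is multiplied by the factor before division, so a low factor raises CPM. The part of scaling in these values was not tested.

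At E13.5 all 10 genes were highest in the G1 gate in both preparations. The order G1, S-G2-M, G1-S, G0 held for the means of 9 genes, and for Sox5 G0 and G1-S changed places. Relative to the G1 library of the same preparation, G0 libraries held 15.3% to 62.9% of the CPM, G1-S libraries 32.8% to 67.6% and S-G2-M libraries 50.8% to 91.5%, over the 10 genes and both preparations. The E13.5 values of neighbouring gates overlapped between S-G2-M and G1-S for Acan, Matn1 and Cnmd. No other neighbours in these orders overlapped.

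**Figure D3:**
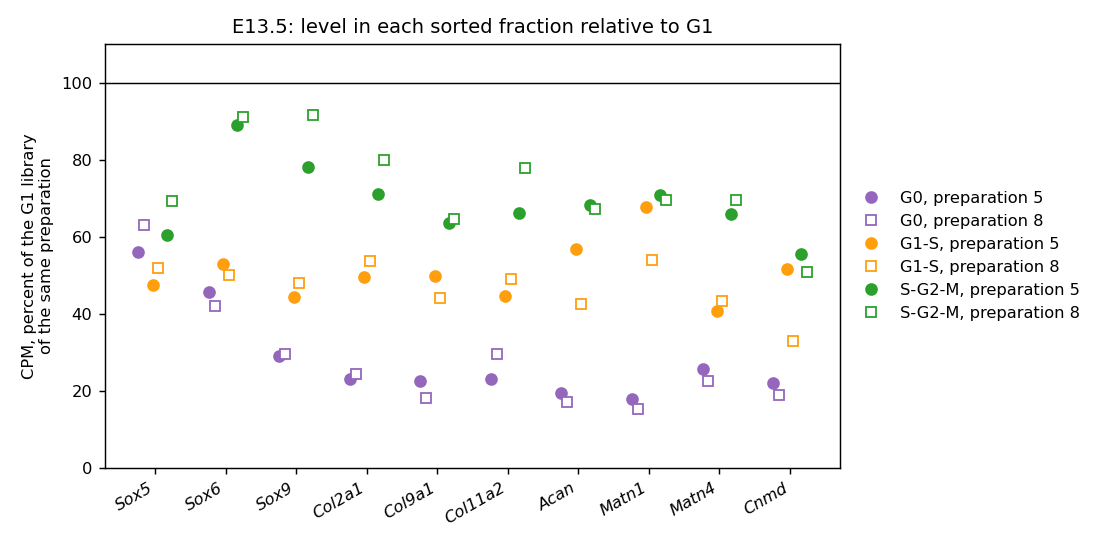
CPM in the G0, G1-S and S-G2-M libraries of E13.5 as a percentage of the G1 library of the same preparation, for each gene; filled circles are preparation 5 and open squares preparation 8. All points lie below the line at 100, and G0 points of the matrix genes lie between 15.3 and 29.6.

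From G0 to G1 at E13.5 all 10 genes rose, where 9.85% of all genes tested rose, with a median of 2.06 against 0 for all genes. Sox9 was at 47.3 CPM in G0 and 163 CPM in G1 in preparation 5, and at 43.3 and 147 CPM in preparation 8, a 3.43-fold difference (log2 1.78, SE 0.16, adjusted p = 4.90e-07). Sox6 went from 99.97 to 219 CPM and from 90.4 to 215 CPM, 2.28-fold (log2 1.19, SE 0.14, adjusted p = 8.69e-06). Sox5 had the smallest change, 1.69-fold (log2 0.75, SE 0.13, adjusted p = 0.000324), from 93.2 to 166 CPM and from 97.5 to 155 CPM.

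Among matrix genes the G1 level at E13.5 was 3.86 to 5.99 times the G0 level. Col2a1 stood at 784 and 782 CPM in G0 and at 3412 and 3200 CPM in G1 (log2 2.08, SE 0.21, adjusted p = 1.21e-06). Matn1 had the largest difference, from 15.3 and 11.2 CPM to 85.2 and 73.6 CPM (log2 2.58, SE 0.41, adjusted p = 0.000338). Both G1 libraries were above both G0 libraries for all 10 genes. Sox5 and Matn1 did not pass without preparation 5 (adjusted p = 0.138 and 0.156) or without preparation 8 (adjusted p = 0.068 and 0.212), and Acan did not pass without preparation 8 (adjusted p = 0.0568). In a model with a single gate difference over all 3 days, Cnmd was lower in G1 (log2 change -2.65, adjusted p = 0.0111) and Col11a2 and Acan did not pass.

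G0 libraries also held the most RNA of neuron markers, and this moved with the gate. The 6 genes of that list (Tubb3, Elavl3, Dcx, Stmn2, Nefl and Mapt) summed to 3230 and 3370 CPM in G0 and to 453 and 470 CPM in G1 at E13.5. All 6 fell from G0 to G1, where 13.9% of all genes fell. Mapt (log2 change -5.07) and Stmn2 (-3.54) were in front, and none had a mean of 0. Of 12 genes of undifferentiated and connective tissue mesenchyme, 4 rose from G0 to G1 and none fell, with Msx1 (log2 1.76) and Prrx1 (log2 1.19) in front, and their sum was 6650 and 5760 CPM in G0 and 8270 and 8630 CPM in G1. The part of these cell types in the differences of the cartilage genes was not tested.

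From G1 to G1-S at E13.5, 8 of the 10 genes fell, where 5.14% of all genes fell, with a median of -1.05 against 0.03 for all genes. Sox9 fell from 163 to 72.1 CPM in preparation 5 and from 147 to 70.6 CPM in preparation 8 (log2 change -1.12, SE 0.16, adjusted p = 7.83e-05). Matn4 fell from 255 to 104 CPM and from 253 to 109 CPM (log2 change -1.25, SE 0.23, adjusted p = 0.00103). Acan went from 368 to 209 CPM and from 303 to 129 CPM, and Matn1 from 85.2 to 57.6 CPM and from 73.6 to 39.6 CPM. Neither passed (Acan log2 change -0.99, 95% interval -1.76 to -0.23, adjusted p = 0.0667; Matn1 -0.71, 95% interval -1.56 to 0.14, adjusted p = 0.232), although both G1-S libraries were below both G1 libraries for each.

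Without preparation 5 none of the 10 genes passed, and without preparation 8 only 1 did, Sox5, with log2 changes that stayed negative. The model with a single gate difference over all days called 2 of the 10. Markers of other cell types also moved from G1 to G1-S, where 11.4% of all genes rose and 5.14% fell. Of the 12 mesenchyme genes 1 rose and 3 fell. The 6 liver genes summed to 24.5 and 20.1 CPM in G1 and to 1990 and 1490 CPM in G1-S, led by Apoa2 (log2 8.80) and Afp (log2 7.49), and all 6 rose. All 6 neural crest and glia genes rose, with Foxd3 (log2 1.88) and Fabp7 (log2 1.71) in front, and 3 of 6 heart muscle genes rose, with Myh7 (log2 5.41) and Myl2 (log2 5.12) in front. All 3 notochord genes tested rose, T (log2 2.78) and Foxa2 (log2 1.34) in front. The part of these cell types in the lower levels of the cartilage genes in G1-S was not tested.

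From G1-S to S-G2-M at E13.5, Sox6 and Sox9 rose, 2 of 10 genes where 2.17% of all genes rose. Sox6 went from 116 to 195 CPM in preparation 5 and from 107 to 196 CPM in preparation 8 (log2 0.81, SE 0.14, adjusted p = 0.00138). Sox9 went from 72.1 to 128 CPM and from 70.6 to 135 CPM (log2 0.88, SE 0.16, adjusted p = 0.00177). The other 8 genes had log2 differences of 0.20 to 0.69 that did not pass. Marker genes moved in the same step: 4 of 6 neural progenitor genes rose, Pax6 (log2 1.46) and Sox1 (log2 1.40) in front, with a median over the list of 0.97. All 6 liver genes and all 6 neural crest and glia genes fell, with medians of -6.13 and -1.70, where 5.01% of all genes fell. The part of these cell types in the rise of Sox6 and Sox9 was not tested. Neither Sox gene passed without preparation 5 or without preparation 8, and the count was 7 without WT1, 7 without WT2, 4 without WT3, 6 with no filter on low counts and 5 with preparation as a block.

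Between S-G2-M and G1 at E13.5, 3 of 10 genes were lower in S-G2-M, Sox5, Col9a1 and Cnmd, where 7.19% of all genes were lower. Sox5 was at 101 and 107 CPM in S-G2-M against 166 and 155 CPM in G1 (log2 change -0.63, SE 0.13, adjusted p = 0.00251). Sox6 was at 195 and 196 CPM against 219 and 215 CPM, and its difference of -0.15 (95% interval -0.47 to 0.16) did not pass. None of the 3 calls held without preparation 5 or without preparation 8, and the count was 7 without WT1 or without WT2 and 8 with no filter on low counts.

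At E10.5 the gates were ordered differently. From G0 to G1, 5 of the 10 genes rose, where 18.9% of all genes rose, and 2 fell, where 15.8% of all genes fell. The 5 were Sox5, Sox6, Sox9, Col2a1 and Col9a1. Sox9 rose 4.66-fold, from 10.9 to 63.0 CPM in WT1 and from 14.1 to 53.1 CPM in WT2 (log2 2.22, SE 0.17, adjusted p = 5.36e-08). Col9a1 rose from 22.2 to 96.9 CPM and from 37.4 to 138 CPM (log2 1.98, SE 0.22, adjusted p = 4.19e-06). These 7 calls were made in each fit that left out a preparation.

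The 2 genes that fell from G0 to G1 at E10.5 were Col11a2 and Cnmd. Col11a2 was at 29.8 and 35.1 CPM in G0 and at 16.1 and 11.7 CPM in G1 (log2 change -1.22, SE 0.24, adjusted p = 0.000945). Cnmd was at 35.0 and 26.2 CPM in G0, and its highest value in the other E10.5 sorted libraries was 2.72 CPM, in G1 of WT1 (log2 change -3.76, SE 0.31, adjusted p = 2.00e-07). E11.5 showed the same order in 1 preparation, with Cnmd at 28.8 CPM in G0 and 1.24 CPM in G1, and Col11a2 at 30.7 and 18.2 CPM. Acan, at 2.11 and 4.36 CPM in G0 against 1.10 and 1.71 CPM in G1, did not pass (log2 change -1.13, adjusted p = 0.0883), though it did without the filter on low counts and with DESeq2.

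The G0 gate at E10.5 held 5960 and 5060 CPM of the 6 neuron genes, against 1320 and 998 CPM in G1, and all 6 fell from G0 to G1, with Nefl (log2 change -4.66) and Mapt (-3.65) in front. The 4 notochord genes, of which 3 were tested, summed to 21.9 and 35.4 CPM in G0 and to 14.9 and 18.2 CPM in G1, and T (log2 change -1.55) and Shh (-0.82) fell. Of 6 heart muscle genes 3 fell, Myh6 (-3.44) and Myh7 (-3.42) in front, with sums of 206 and 555 CPM in G0 and 29.0 and 77.9 CPM in G1. Of the mesenchyme list, 9 of 12 genes rose from G0 to G1, led by Twist1 (log2 2.79) and Prrx1 (log2 2.62). All 6 neural progenitor genes rose, Hes5 (log2 3.37) and Sox2 (log2 2.10) in front, with sums of 405 and 599 CPM in G0 and 1350 and 1190 CPM in G1, and 5 of 6 red cell genes rose, with a median over the list of 3.29. The part of these cell types in the rise of Sox9 and the other 4 genes was not tested. Genes on the opposite strand share 32.8% of the exon length of Nefl, 31.8% of Hes5, 28.3% of Shh and 13.3% of Myh7. At E13.5 Cnmd and Col11a2 were lowest in G0. The neuron sum of G0 was again the highest of the fractions, at 3230 and 3370 CPM. The heart muscle sum of G0 was 59.9 and 59.2 CPM at that day, and the notochord sum was 7.26 and 8.21 CPM. Which cells carried Cnmd and Col11a2 in the early G0 gate was not tested.

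**Figure D4:**
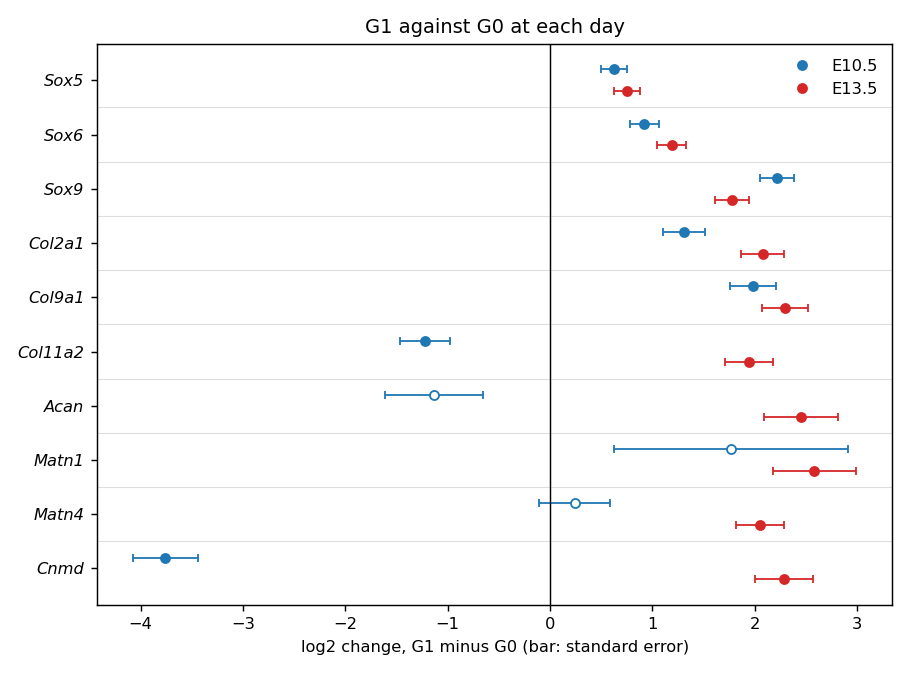
Log2 change from G0 to G1 of each gene at E10.5 (blue) and E13.5 (red), with the standard error as a bar; filled points passed the test. Red points lie between 0.75 and 2.58, while blue points of Col11a2 (-1.22), Acan (-1.13) and Cnmd (-3.76) lie below 0.

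Whether the step from G0 to G1 differed between days was tested as a difference of differences. It was more positive at E13.5 for 4 of the 10 genes, where 1.04% of all genes were: Cnmd by 6.04 (SE 0.42, adjusted p = 2.69e-06), Acan by 3.58 (SE 0.60, adjusted p = 0.00497), Col11a2 by 3.17 (SE 0.34, adjusted p = 8.27e-05) and Matn4 by 1.81 (SE 0.42, adjusted p = 0.0242). For Sox5 the difference was 0.13 (95% interval -0.28 to 0.54), for Sox6 0.27 (95% interval -0.18 to 0.72) and for Sox9 -0.44 (95% interval -0.95 to 0.06), and none of these passed. Of these 4, Cnmd alone passed without preparation 5, Cnmd and Col11a2 passed without preparation 8, and Acan did not pass without WT2.

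In the later steps at E10.5 fewer genes passed from G1 to G1-S than from G1-S to S-G2-M. From G1 to G1-S only Sox6 fell, 1 of 10 genes where 6.54% of all genes fell, from 83.9 to 52.3 CPM in WT1 and from 71.8 to 58.0 CPM in WT2 (log2 change -0.50, SE 0.14, adjusted p = 0.0277). It did not pass without WT1, 5 or 8 (adjusted p = 0.0541, 0.188 and 0.151), while 5 of the 10 genes changed in this step when WT2 was left out. Against this step at E13.5, 6 of the 10 genes differed, all more negative at E13.5, where 1.6% of all genes were: Sox5, Col2a1, Col9a1, Col11a2, Acan and Matn4. Col2a1, for example, went from 544 to 778 CPM in WT1 and from 491 to 603 CPM in WT2 but fell in both E13.5 preparations, a difference of -1.37 (SE 0.28, adjusted p = 0.00891). None of the 6 passed without preparation 5 or without preparation 8, and Acan did not pass without WT2.

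From G1-S to S-G2-M at E10.5, the Sox trio rose, 3 of 10 genes where 7.92% of all genes rose, and Col11a2, Acan and Matn4 fell, 3 of 10 where 8.59% of all genes fell. Sox9 went from 36.9 to 79.5 CPM in WT1 and from 51.6 to 61.5 CPM in WT2 (log2 0.66, SE 0.16, adjusted p = 0.00926). Col11a2 went from 14.6 to 8.10 CPM and from 18.5 to 8.18 CPM (log2 change -1.03, SE 0.25, adjusted p = 0.0105). Acan and Matn4 were below 6 CPM in all these libraries. Of these 6 calls, 2 were left without WT1 and none without preparation 5 or preparation 8, Acan did not pass without WT2, and Sox6 also did not pass with DESeq2 or with other scaling factors. The step was more positive at E13.5 for Col11a2 (by 1.64, SE 0.34, adjusted p = 0.0267) and Matn4 (by 1.86, SE 0.40, adjusted p = 0.0365), 2 of 10 genes where 0.353% of all genes were, and neither passed without preparation 5 or without preparation 8. The count was 5 without WT1.

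Levels can be set beside each other between genes only per length, as CPM per kilobase of exon. In G1 at E13.5 Col2a1 was at 358 ± 16.2 CPM per kilobase (SD, n = 2), Col9a1 at 102 ± 4.77, Col11a2 at 66.7 ± 8.37, Matn4 at 49.1 ± 0.177, Acan at 44.9 ± 6.11, Matn1 at 39.7 ± 4.09, Sox9 at 37.6 ± 2.74, Cnmd at 36.1 ± 1.20, Sox6 at 14.6 ± 0.198 and Sox5 at 11.2 ± 0.566. From Matn4 to Cnmd the neighbours lay within their spread of each other, so that Sox9 stood among the genes of its matrix programme on this scale. Sox6 and Sox5 were the lowest. The length joins the exons of all transcripts of a gene, 14832 bases for Sox6, 14376 for Sox5 and 4135 for Sox9. These come from 16, 14 and 1 transcripts. Before division by length, Sox6 was at 217 CPM, Sox5 at 161 CPM and Sox9 at 155 CPM. The place of Sox6 and Sox5 therefore depends on this choice of length. In G1 at E10.5 Col2a1 was at 56.0 ± 4.07, Col9a1 at 23.2 ± 5.73 and Sox9 at 14.04 ± 1.69 CPM per kilobase, while Acan, Matn1 and Matn4 were at 0.159 to 0.281. The 10 genes together took 0.0962% and 0.0892% of counts in G1 in WT1 and WT2, and 0.638% and 0.583% in preparations 5 and 8.

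The makeup of the matrix transcripts shifted between days. For each 100 counts of Col2a1 in the same library, Col9a1 had 11.6 to 35.2 counts over all 25 libraries. Its E13.5 values lay below all earlier ones in G1, G1-S and S-G2-M and overlapped them in G0 and unsorted cells. Col11a2 had 1.30 to 4.18 counts before E13.5 outside G0, 12.4 to 20.2 counts in G0, and 12 to 15.8 counts in all E13.5 libraries. Acan had 0.131 to 1.66 counts before E13.5 and 6.58 to 12.4 counts at E13.5. For Acan the days did not overlap in any fraction. These ratios of counts are not corrected for length and are compared only across libraries.

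Within the trio, Sox9 had 29.2 to 31.9 counts per 100 Sox6 counts in G0 before E13.5 and 47.3 and 47.9 at E13.5. In G1 it had 68.0 to 75.1 at all 3 days. Sox5 had 37.9 and 38 counts per 100 Sox6 counts in unsorted cells at E13.5, and 84.1 to 99.0 before. In G1 the same ratio was 67.8 to 75.9 at all 3 days. In G1 the days overlapped for Sox9 per Sox6. For Sox5 per Sox6 in G1, both E13.5 values, 75.9 and 72.1, lay above all earlier ones, 67.8 to 71.3. Col2a1 had 864 to 1060 counts per 100 Sox9 counts in G1 before E13.5 and 2090 and 2170 at E13.5. In G0 the days overlapped for this ratio, with 1350 to 1920 before E13.5 and 1660 and 1810 at E13.5. In G1-S it was 1170 to 2110 before E13.5 and 2340 and 2430 at E13.5.

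**Figure D5:**
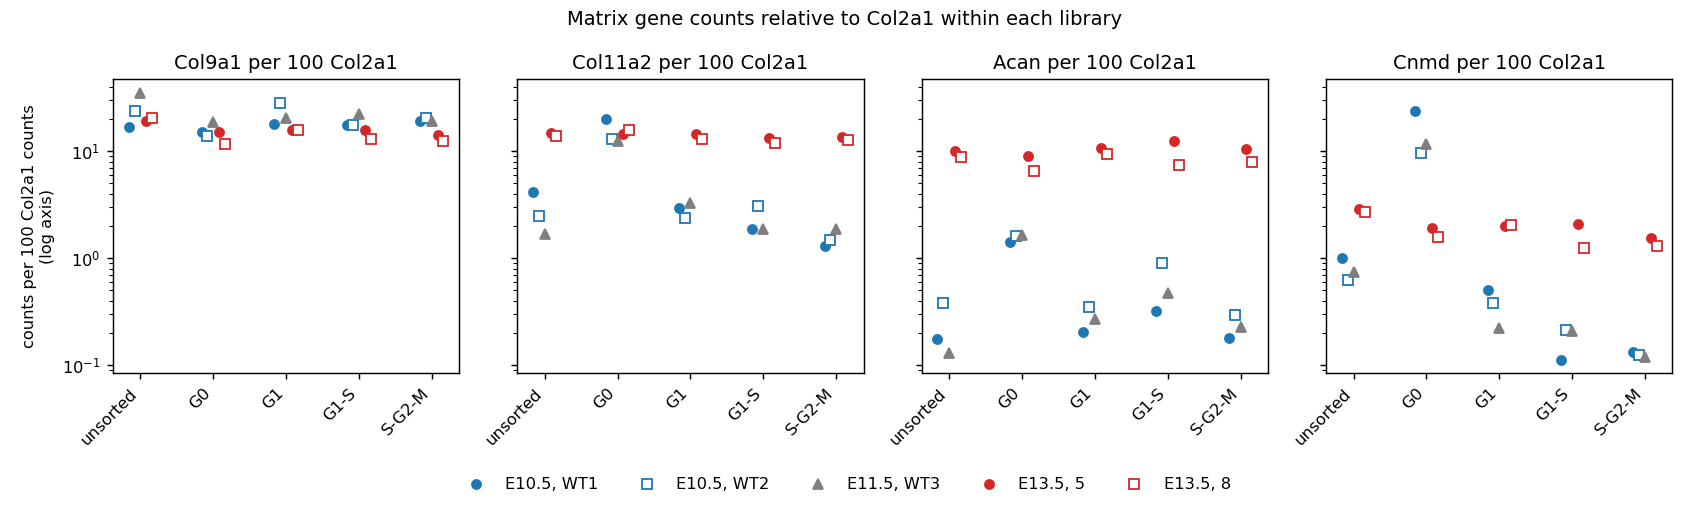
Counts of Col9a1, Col11a2, Acan and Cnmd per 100 counts of Col2a1 in each of the 25 libraries, on a log axis, by fraction and preparation. Col9a1 stays between 11.6 and 35.2, while Acan separates E13.5 (6.58 to 12.4) from the earlier days (0.131 to 1.66), and Cnmd in the early G0 libraries reaches 9.71 to 23.8.

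Other genes of the cartilage programme were counted from lists. Of 12 other cartilage matrix genes 10 were tested, and in G1 8 of them rose from E10.5 to E13.5, where 18.7% of all genes rose, led by Epyc (log2 6.14) and Col9a3 (log2 5.11). From G0 to G1 at E13.5 all 10 rose (9.85% of all genes), led by Hapln1 (log2 2.40), the link protein that ties aggrecan to hyaluronan, and Chad (log2 2.35). At E10.5 4 of the 10 rose in that step (18.9% of all genes) and none fell (15.8%). Of the exon length of Epyc, 40.6% is shared with genes on the opposite strand. Of 12 genes for making and sulfating proteoglycan chains, 10 rose from E10.5 to E13.5 in G1 (18.7% of all genes), led by Papss2 (log2 4.86), which makes the sulfate donor, and Csgalnact1 (log2 4), which starts chondroitin chains. Their median in G1, 0.84, was below that of the 10 cartilage genes, 3.78, and the median over all genes was -0.11.

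Of 12 regulators of early chondrogenesis and joints, 11 rose from E10.5 to E13.5 in G1 (18.7% of all genes), led by Gdf5 (log2 5.62), a growth factor of the joint interzone, and Pthlh (log2 2.35), a signal that holds back chondrocyte maturation. In unsorted cells 6 of them rose (25.2% of all genes) and Meox1, a somite factor, fell (log2 change -1.25), where 28.7% of all genes fell. Of 12 genes of chondrocyte hypertrophy and bone 11 were tested, and in G1 9 rose, led by Panx3 (log2 6.84) and Runx3 (log2 4.73), while Col10a1, the collagen of hypertrophic cartilage, fell (log2 change -3.15, from 2.84 to 0.315 CPM on average). In G1 18.7% of all genes rose and 28.5% fell between these days. Of 4 markers of Sertoli cells, a testis cell type that also uses Sox9, 3 were tested, and in G1 Dhh rose (log2 1.25) and Gata4 fell (log2 change -1.08). Genes on the opposite strand share 40.3% of the exon length of Gdf5 and 25.2% of that of Dhh. A further 12.4% of Dhh is shared on its own strand, so such reads cannot be assigned with certainty.

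The genes most like a member over the 25 libraries were found by Pearson's r of log2 CPM among 11852 other genes, as a description, since the libraries share days, preparations and depth. Col2a1 was most like Col11a1 (0.975), the partner of Col11a2 in collagen XI, Ctdspl (0.964) and Col27a1 (0.964). Acan was most like Papss2 (0.987), Col9a3 (0.983) and Susd5 (0.982). For Sox9 these were Trps1 (0.968), Wnt5a (0.959) and Snai2 (0.957). Sox6 was most like Runx2 (0.944), Rtkn (0.943) and Ctdsp2 (0.937). Among the members themselves, r was 0.984 between Acan and Matn4 and 0.188 between Sox9 and Cnmd, the highest and the lowest of the pairs.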

How the data were processed

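RNA-seq was read from 4 FUCCI gates and unsorted cells of 5 preparations. The authors deposited raw counts per gene and sequencing lane, and STAR 2.5.3, HTSeq 0.8.0 and mm10 are named in the submitters' processing notes. The 130 lane columns were summed to 25 libraries. Counting by strand is not given in the sources used here. Totals of 14692256 to 58492064 counts put 3 counts at 0.0547 to 0.217 CPM, and intervals and floors cover counting error only.

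Genes were kept by edgeR's filterByExpr (minimum count 10, minimum total 15), scaled by TMM and tested with edgeR 4.0.16 (R 4.3.3, limma 3.58.1) by the quasi-likelihood F test in a model with 15 means of day and gate, 25 libraries and 10 residual degrees of freedom. P-values were adjusted by Benjamini-Hochberg over 23506 genes. The procedure was also run on simulated counts with changes in a single gate of E13.5, and the outcome is not reported here. Libraries were drawn independently there, so shared deviations within a preparation were not covered. Positions and exon lengths, joined over all transcripts of a gene, came from GENCODE (GRCm38), upstream windows from RefSeq.

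By the rule for named genes all 10 are covered in each comparison, by value or within a count or range, and of every other list up to 2 genes each way with the largest change past the threshold are named. As most like a gene, the text names the 3 with the highest Pearson's r among genes whose mean log2 CPM reached 2. For Sox5 that result is not reported here. Genes and lists were chosen with earlier results of these data known. Alternatives were RLE scaling, DESeq2 1.42.0, no filter on low counts, a block for preparation, leaving out each preparation, leaving out Gm26917 and Gm42418, and 1 gate effect over all days. Protein sequences were not used here.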

Additional observations from a re-analysis of the deposited data

Results flagged for a closer look

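Steps between gates that differed between E10.5 and E13.5, by a test of the difference itself (edgeR), are listed here as the E13.5 log2 change minus the E10.5 log2 change. For G1 against G0 the difference was 3.17 for Col11a2, 3.58 for Acan, 1.81 for Matn4 and 6.04 for Cnmd. For G1-S against G1 it was -0.99 for Sox5, -1.37 for Col2a1, -1.14 for Col9a1, -1.36 for Col11a2, -2.51 for Acan and -1.84 for Matn4. For S-G2-M against G1-S it was 1.64 for Col11a2 and 1.86 for Matn4. Day and preparation cannot be told apart in any of them.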

How the results depend on the processing

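Counts of the 10 genes that passed were within 1.5 times the reported count for all 15 comparisons with RLE scaling and without Gm26917 and Gm42418. With 1 gate effect over all days, the counts became 2 for G1-S against G1, 0 for S-G2-M against G1 (both E13.5), 2 for G1-S against G1 and 2 for S-G2-M against G1-S (both E10.5). With no filter on low counts they became 6 for S-G2-M against G1-S and 8 for S-G2-M against G1 at E13.5, 4 for G1-S against G1 at E10.5, and 4 for the day difference of S-G2-M against G1-S. DESeq2 gave 3 for G1-S against G1 at E10.5. With preparation as a block the counts were 5 for S-G2-M against G1-S and 6 for S-G2-M against G1 at E13.5 and 3 for G1-S against G1 at E10.5. Libraries of 1 preparation deviated together with r of 0.041 to 0.454 (WT1 and WT2) and 0.059 to 0.122 (5 and 8) over pairs of fractions.

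Leaving out each preparation gave 7 to 10 calls for the day change in G1-S, 9 to 10 in G0, S-G2-M and unsorted cells and 10 in G1. At E13.5 it gave 7 to 10 for G1 against G0, 0 to 9 for G1-S against G1, 0 to 7 for S-G2-M against G1-S and 0 to 7 for S-G2-M against G1. At E10.5 it gave 7, 0 to 5 and 0 to 6 for the 3 steps in turn, and for their day differences 1 to 6, 0 to 8 and 0 to 5. Without 5 or 8, the lone E13.5 library is assumed to vary like the other groups. The cause of these shifts was not tested.

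Of single genes, 30 values changed sign, 2 of them among called values. With 1 gate effect over all days these were, at E13.5, Col11a2 (-0.11) and Cnmd (-2.65) for G1 against G0, Acan (0.17) for G1-S against G1, Col9a1 (-0.015), Col11a2 (-0.13), Acan (-0.58), Matn4 (-0.22) and Cnmd (-0.11) for S-G2-M against G1-S, and Sox9 (0.031) for S-G2-M against G1. At E10.5 they were Acan (0.39) for G1 against G0, Col2a1 (-0.11), Col9a1 (-0.27), Col11a2 (-0.46) and Matn4 (-0.35) for G1-S against G1, and Col2a1 (0.004) and Matn1 (0.12) for S-G2-M against G1-S. Without WT1 they were Col9a1 (-0.37) and Matn4 (-0.24) for G1-S against G1 and Col9a1 (0.076) for S-G2-M against G1-S, all at E10.5. Without WT2 they were Col11a2 (-0.17) for G1-S against G1 and Matn1 (0) for S-G2-M against G1-S at E10.5. Among day differences, they were without WT2 Sox6 (-0.11) and Matn1 (-2.75) for G1 against G0, Matn1 (4.63) and Cnmd (0.43) for G1-S against G1, and Sox9 (-0.22) for S-G2-M against G1-S. For the day difference of G1-S against G1, they were Matn1 (0.028) and Cnmd (0.02) without preparation 8, Matn1 (0.062) with the block and Matn1 (0.03) with DESeq2. For the genes that changed sign when a preparation was left out, the other end of that range was 0.48 for Col9a1, 0.65 for Col11a2 and 1.52 for Matn4 (G1-S against G1, E10.5), and -0.21 for Col9a1 and -0.82 for Matn1 (S-G2-M against G1-S, E10.5). For day differences it was 0.62 for Sox6 and 1.59 for Matn1 (G1 against G0), -0.29 for Matn1 and -0.70 for Cnmd (G1-S against G1), and 0.63 for Sox9 (S-G2-M against G1-S).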
